A study of Arabidopsis thaliana with 6 samples.

Results

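The complemented line *nerd-1*+T returns a NERD gene to the *nerd-1* mutant, so that the comparison of these lines in *Arabidopsis thaliana* asks which genes change when NERD is put back into the mutant background. Its members are the 4 libraries of *nerd-1* and *nerd-1*+T, of 6 in the series, and the 19266 of 33242 genes on the 5 chromosomes that reached at least 1 FPKM in 2 of these 4 libraries. FPKM are mapped fragments scaled to transcript length and to the size of the library. NERD is a protein with GW repeats, which bind ARGONAUTE proteins, and a PHD finger, a fold that reads histone tails, and it is known for a role in small RNA-dependent DNA methylation and silencing.

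All plants were in the Col-0 ecotype, and polyadenylated RNA was taken from whole 14-day-old seedlings. *nerd-1* plants carry the T-DNA insertion SALK_093814 in *NERD*. *nerd-1*+T plants carry the same insertion and in addition a construct for flag-tagged NERD, and are 1 complemented line. WT plants have neither, and their 2 libraries are given below as levels only, beside the comparison. Nothing in the labels says that the 2 libraries of a genotype came from separate cultures, so that *p*-values measure only the spread between these samples, which may be technical. The promoter of the construct was not taken from the labels, and the labels give no growth or harvest batch, so that a batch and the genotype cannot be told apart.

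*NERD* itself (AT2G16485, chr2:7136845-7145424, minus strand, in the TAIR10.1 annotation used for all positions here) was at 7.59 and 7.46 FPKM in *nerd-1*, 63.7 and 63.5 FPKM in *nerd-1*+T and 14.1 and 13.9 FPKM in WT. The complemented line thus held more *NERD* RNA than WT in both libraries, and the mutant less. The difference of *nerd-1* minus *nerd-1*+T was -2.92 ± 0.05 on the log2(FPKM + 1) scale (SE, limma adjusted *p* = 0.000659). Differences below are given on this scale and in this direction, with the SE, and a gene was called at an adjusted *p* under 0.05 over all features tested. The read depth behind a value is unknown because FPKM hold no counts. Genes next to the filter were AT1G58561, with 1.00 and 1.24 FPKM in *nerd-1* and near 0 in *nerd-1*+T, just inside it, and AT1G62590, with 1.00 and 0.992 FPKM in *nerd-1* and 1.06 and 0.769 FPKM in *nerd-1*+T, just outside.

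Libraries of a genotype were alike, less so in *nerd-1*+T: the median SD of log2(FPKM + 1) over the genes was 0.0348 in *nerd-1*, 0.0892 in *nerd-1*+T and 0.0390 in WT. FPKM summed to between 951760 and 966120 in *nerd-1*, between 847360 and 857350 in *nerd-1*+T and between 863990 and 864110 in WT. Of these totals, *MT1A* alone took 12.9 and 13.5% in the *nerd-1* libraries, 3.57 and 1.101% in those of *nerd-1*+T and 1.59 and 1.71% in those of WT. Seedling tissue was checked with organ markers: 4 of the 5 floral markers and all 5 seed storage and embryo markers stayed under the filter, and the summed level of 10 root markers was 1551 and 1563 FPKM in *nerd-1*, 1510 and 1663 FPKM in *nerd-1*+T and 2262 and 2243 FPKM in WT. *PRP3*, a root hair wall protein, was the 1 root marker of 10 called, at 0.53 ± 0.11. In whole seedlings, fewer cells of a type and less RNA per cell cannot be told apart.

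Putting NERD back went with many small changes and few large ones. In *nerd-1*, 3185 genes were higher than in *nerd-1*+T (16.5% of the 19266 tested) and 1827 were lower (9.48%), so that 26% of genes were called. At least 1 log2 unit separated 293 genes that were higher in *nerd-1* (1.52%) and 170 that were lower (0.882%). Both *nerd-1* libraries lay above both *nerd-1*+T libraries for 45.4% of genes, and below both for 29.1%. The call depends on the scaling for small changes more than for large ones: dividing each library by its FPKM total, which includes *MT1A*, lowered the median difference of all genes from 0.06 to -0.09, a shift of 0.15, and the share of calls that were higher in *nerd-1* was 63.5% as deposited, 29.0% after that scaling and 44.9% after centring on the median feature. The median of a list, and the difference of a gene that was not called, can change sign with the scaling where it lies within that shift of 0. Under both of these scalings, 1594 of the 3185 higher calls and all 1827 lower calls held, as did 286 of the 293 and all 170 large ones. Both move differences downward, so that, here and in the lists below, they test higher calls and could hardly remove a lower one.

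Leaving out 1 library left 3 for the fit, in which the lone library is assumed to vary like the others. Without *nerd-1* replicate 1, 166 genes were called higher and 77 lower, and without *nerd-1* replicate 2, 164 and 82. Without *nerd-1*+T replicate 1 there were 6450 higher and 4562 lower, and without *nerd-1*+T replicate 2, 5114 and 2789. For this reason most groups of genes below are given with the number of their calls that held without each *nerd-1* library. In such a fit the spread comes from the *nerd-1*+T pair alone, which varied more (median SD 0.0892 against 0.0348). Small differences can then lose their call although they hardly move. AT3G01490 differed by 0.63 with both *nerd-1* libraries, by 0.61 without replicate 1 and by 0.64 without replicate 2. A lost call therefore does not show that it hung on 1 *nerd-1* library. Of the 293 genes at least 1 unit higher in *nerd-1*, 163 held without replicate 1 and 164 without replicate 2, and of the 170 at least 1 unit lower, 75 and 77 held.

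**Figure D1:**
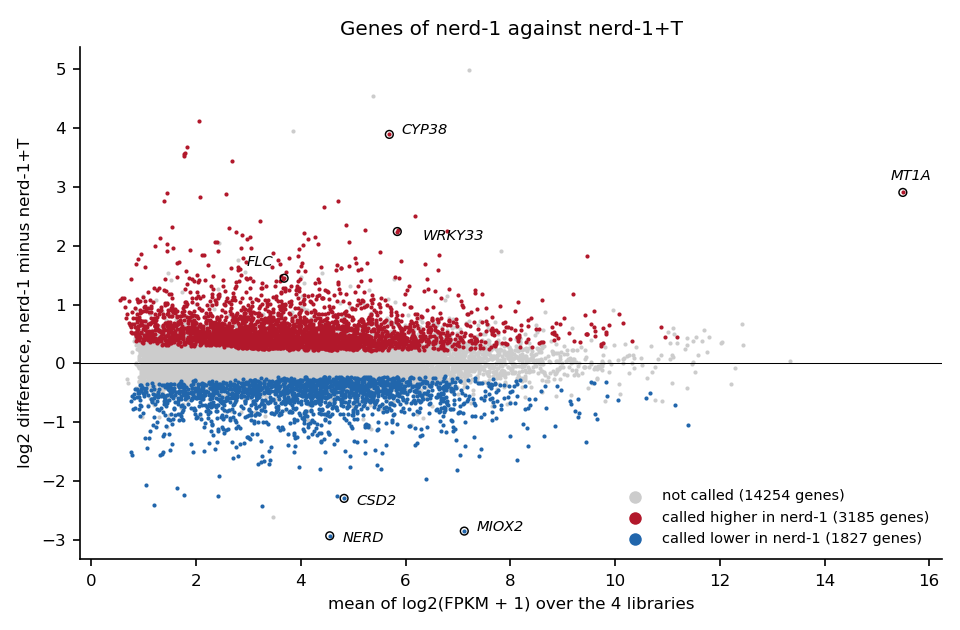
Difference of *nerd-1* minus *nerd-1*+T (log2 FPKM + 1, vertical) against the mean level over the 4 libraries (log2 FPKM + 1, horizontal), 1 point per gene. The 3185 genes called higher in *nerd-1* lie above 0 and the 1827 called lower below it, and *MT1A* stands alone at the far right.

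WT levels divide the large changes. The WT mean was closer to *nerd-1* for 132 of the 293 genes that were at least 1 unit higher and for 100 of the 170 that were at least 1 unit lower, and closer to *nerd-1*+T for 161 and 70. It lay above both lines for 53 and 36 of these genes and below both for 45 and 67. Where WT lay between the lines, it was nearer *nerd-1* for 79 of the higher and 33 of the lower genes. It was nearer *nerd-1*+T for 116 and 34. Where WT lay outside both lines, WT itself may be the genotype that stands apart.

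Among the largest falls in *nerd-1*, 5 genes had WT levels like those of *nerd-1*+T. *XPL1* (AT3G18000, chr3:6154363-6157552), a methyltransferase of phosphocholine synthesis, was at 1.42 and 1.53 FPKM in *nerd-1*, 10.9 and 10.5 FPKM in *nerd-1*+T and 11.98 and 12.5 FPKM in WT (-2.24 ± 0.07, adjusted *p* = 0.00258). AT3G52155, of the phosphoglycerate mutase family, was at 3.48 and 2.82 FPKM in *nerd-1* and 21.2 and 21.1 FPKM in *nerd-1*+T, with 24.8 and 27.0 FPKM in WT. It overlaps *KCS15*, which stayed under the filter. AT4G31310, of the AIG2-like family, AT5G25570, annotated as a polyamine-modulated factor 1-binding protein, and AT1G09910, of the rhamnogalacturonate lyases that cut pectin, fell by 2.25, 2.22 and 1.91. AT5G25570, at 0.477 and 0.673 FPKM in *nerd-1*, passed the filter through *nerd-1*+T only, where it is high by that choice. In these 5 genes the mutant was the low one of the 3 genotypes.

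*MIOX2* (AT2G19800, chr2:8530865-8533779), which oxidises myo-inositol to glucuronic acid, was at 49.6 and 52.4 FPKM in *nerd-1*, 344 and 403 FPKM in *nerd-1*+T and 38.5 and 36.3 FPKM in WT (-2.84 ± 0.10, adjusted *p* = 0.00258). Here *nerd-1*+T was the high one, 7.32 times the *nerd-1* mean. The same held of *CSD2* and *XTH16*, described below, and of AT3G02070, of the cysteine proteinase superfamily, which fell by 1.80. AT5G03120, an uncharacterized protein, fell by 1.96, with WT between the 2 lines.

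Of the 12 largest rises in *nerd-1*, 6 were of genes listed at 0 in both *nerd-1*+T libraries. AT5G57650, like a translation initiation factor, was at 16.2 FPKM in both *nerd-1* libraries and listed at 0 in both libraries of *nerd-1*+T and of WT. AT2G20784, AT3G05746 and AT3G48346, all uncharacterized, were likewise listed at 0 in *nerd-1*+T and in WT, with 8.14 and 16.7, 7.33 and 14.9, and 5.72 and 5.81 FPKM in *nerd-1*. AT3G22945 had 10.9 and 10.8 FPKM in *nerd-1* and values next to 0 in the other genotypes. Some zeros in these files may be estimates that failed, so that no fold is given. Over all calls, a genotype was listed at 0 in both libraries for 8 of the 293 large rises and 4 of the 170 large falls, and 41 and 21 had passed the filter through 1 genotype only.

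*CYP38* (AT3G01480, chr3:188321-190892), an immunophilin of the thylakoid lumen needed to assemble photosystem II, was at 196 and 199 FPKM in *nerd-1*, 12.6 and 12.3 FPKM in *nerd-1*+T and 186 and 181 FPKM in WT. Its level was thus low in *nerd-1*+T alone, and the difference of 3.89 ± 0.05 was the largest of any gene above 100 FPKM named here. AT3G01490, a protein kinase on the other strand whose end overlaps that of *CYP38*, was at 34.2 and 33.6 FPKM in *nerd-1*, 21.4 and 21.9 FPKM in *nerd-1*+T and 31.5 and 29.9 FPKM in WT (chosen after its values were seen). The remaining large rises were of AT4G16870 (2.88), AT4G36791 (2.82), *AT2G11270* (2.89), *MIR164b*, *MIR472* and *MT1A*. The calls of AT4G16870, AT4G36791, *MIR472* and *MT1A* were lost when no filter on low values was applied, with adjusted *p*-values of 0.0547, 0.104, 0.0859 and 0.428.

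**Figure D2:**
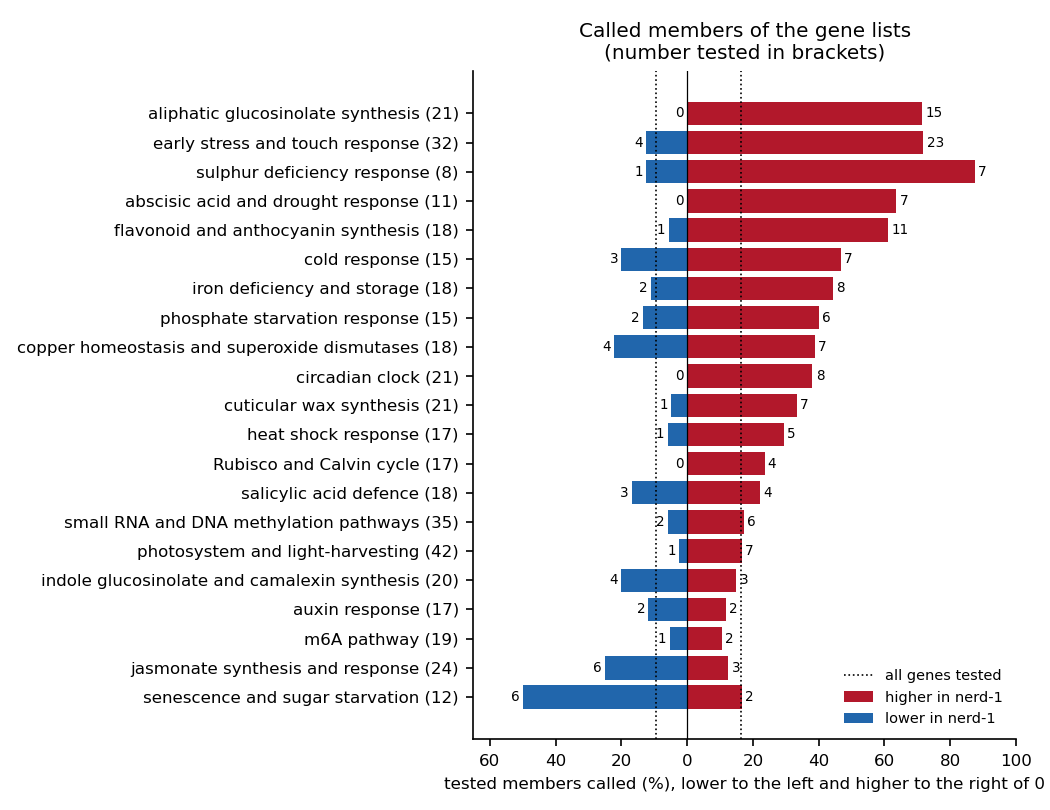
Share of the tested members of 21 pathway lists (percent) called lower in *nerd-1* than in *nerd-1*+T (blue, to the left) or higher (red, to the right), with the number of genes beside each bar and the number tested in brackets. The dotted lines mark the shares over all genes, 9.48% lower and 16.5% higher; of the lists drawn, the senescence and sugar starvation list reaches furthest to the left, with 6 of 12 genes, and the copper microRNA targets are not drawn.

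Metallothioneins are small cysteine-rich proteins that bind copper and zinc. *MT1A* (AT1G07600, chr1:2338904-2339321) was at 122380 and 130400 FPKM in *nerd-1*, 30610 and 9330 FPKM in *nerd-1*+T and 13761 and 14739 FPKM in WT. The 2 libraries of *nerd-1*+T differed from each other more than those of the other genotypes, and both lay below both of *nerd-1* (2.90 ± 0.63, adjusted *p* = 0.0377). *MT1C*, a near-identical neighbour with which *MT1A* may share reads, was at 527 and 559 FPKM in *nerd-1* and 389 and 375 FPKM in *nerd-1*+T (0.51 ± 0.07). *MT1B* (0.50), *MT2A* (-0.05), *MT2B* (0.90, adjusted *p* = 0.0966) and *MT3* (-0.35) were not called, and *MT4A* and *MT4B*, which are expressed in seeds, stayed under the filter. The calls of *MT1A* and *MT1C* were lost without either *nerd-1* library.

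Copper genes set *nerd-1*+T apart from both *nerd-1* and WT. In plants short of copper, the factor SPL7 raises copper uptake and a set of microRNAs, and these microRNAs lower the RNAs of abundant copper proteins, so that an iron superoxide dismutase takes the place of the copper/zinc enzymes. Of 18 genes of copper handling and superoxide dismutases, 7 were higher in *nerd-1* (38.9%) and 4 lower (22.2%), with a median difference of 0.15 (-0.02 after scaling to the FPKM total), against 0.06 over all genes. WT was closer to *nerd-1* for 6 of the 7 and all 4. It lay above both lines for 3 of the 7 and below both for 1, and below both for 2 of the 4. Scaled to the FPKM total, 6 were higher and 6 lower, and 4 of the 11 calls held without *nerd-1* replicate 1 and 4 without replicate 2.

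The uptake genes were low in *nerd-1*+T. *COPT2*, a high-affinity copper transporter, was at 62.1 and 58.8 FPKM in *nerd-1*, 14.2 and 19.6 FPKM in *nerd-1*+T and 60.4 and 59.4 FPKM in WT (1.79 ± 0.16, adjusted *p* = 0.0081). *FRO5*, a metalloreductase that serves copper uptake, was at 3.64 and 3.70 FPKM in *nerd-1*, 0.132 and 0.208 FPKM in *nerd-1*+T and 3.52 and 3.57 FPKM in WT (1.999 ± 0.08). Its neighbour *FRO4* was at 22.2 and 20.9 FPKM in *nerd-1*, 6.52 and 6.82 FPKM in *nerd-1*+T and 24.3 and 25.3 FPKM in WT (1.56 ± 0.07). In all 3 genes the *nerd-1* and WT libraries lay side by side and the *nerd-1*+T libraries far below. Of these, *FRO5* passed the filter through *nerd-1* only, where it is high by that choice. *SPL7* itself was 0.38 ± 0.07 higher in *nerd-1*, a call that was lost under another scaling. AT1G71200, a bHLH transcription factor gene chosen after its values were seen, was at 16.5 and 14.1 FPKM in *nerd-1*, 3.04 and 2.48 FPKM in *nerd-1*+T and 15.0 and 14.9 FPKM in WT (2.11 ± 0.12).

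The superoxide dismutases went in opposite directions. *CSD2* (AT2G28190), the chloroplast copper/zinc enzyme, was at 11.3 and 12.4 FPKM in *nerd-1*, 57.6 and 66.1 FPKM in *nerd-1*+T and 18.1 and 17.9 FPKM in WT (-2.29 ± 0.09, adjusted *p* = 0.00258). *CSD1*, the cytosolic one, was at 23.0 and 22.3 FPKM in *nerd-1*, 67.2 and 50.1 FPKM in *nerd-1*+T and 13.1 and 12.6 FPKM in WT (-1.32 ± 0.15). *CCS*, the chaperone that loads both with copper, was 0.95 ± 0.08 lower in *nerd-1*. *FSD1*, the iron enzyme, was at 934 and 956 FPKM in *nerd-1*, 685 and 612 FPKM in *nerd-1*+T and 954 and 969 FPKM in WT (0.55 ± 0.09). The copper enzymes were thus highest, and the iron enzyme lowest, in *nerd-1*+T. Named after their values were seen, the copper chaperone *CCH* rose by 1.18 ± 0.11 and *PETE1*, a plastocyanin, fell by 0.29. *CSD3*, *FSD2*, *FSD3*, *MSD1*, *ATX1*, *HMA5* and *PETE2* were not called.

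The copper microRNAs and their targets were looked at after these values were seen, and both the list of 12 targets and that of 7 precursors were written then. Polyadenylated precursors of *MIR408* were at 9.83 and 9.79 FPKM in *nerd-1*, 1.77 and 1.41 FPKM in *nerd-1*+T and 7.60 and 7.34 FPKM in WT (2.07 ± 0.09, adjusted *p* = 0.00293). Those of *MIR398c* were at 2.99 and 3.37 FPKM in *nerd-1*, 1.13 and 1.29 FPKM in *nerd-1*+T and 4.16 and 4.18 FPKM in WT (0.92 ± 0.09). *MIR857*, under the filter, was at 0.899 and 1.29 FPKM in *nerd-1*, 0.154 and 0.154 FPKM in *nerd-1*+T and 3.92 and 2.67 FPKM in WT. All 3 were lowest in *nerd-1*+T. *MIR397a*, *MIR397b*, *MIR398a* and *MIR398b* were listed at 0 in all 6 libraries, and mature microRNAs were not measured. *MIR408* overlaps AT2G47020 in the annotation. The mature sequences, read from the RefSeq TAIR10.1 genome, are shown because their targets moved together; each runs 5′ to 3′ with the seed (bases 2 to 8) in capitals, and no seed is shared.
miR398c-3p (chr5:4694778-4694798, plus strand): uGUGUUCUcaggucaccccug
miR408-3p (chr2:19319933-19319953, plus strand): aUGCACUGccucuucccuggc
miR397a (chr4:2625960-2625980, plus strand): uCAUUGAGugcagcguugaug
miR857 (chr4:7878198-7878218, minus strand): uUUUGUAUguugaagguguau

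Of the 11 targets tested, 10 were lower in *nerd-1* (90.9%) and 0 higher, with a median of -0.91. *LAC13* was not called (-0.10) and *LAC12* stayed under the filter. All 10 held under both other scalings, and 2 held without *nerd-1* replicate 1 and 2 without replicate 2. The scalings move differences downward and could hardly have removed these lower calls. WT was closer to *nerd-1* for 8 of the 10. Besides the superoxide dismutases and *CCS*, the called targets were *COX5B-1*, a subunit of cytochrome c oxidase, the plantacyanin *ARPN*, and the laccases *LAC2*, *LAC3*, *LAC4*, *LAC7* and *LAC17*, copper enzymes of which *LAC4* and *LAC17* polymerise lignin. *LAC2* was at 0.358 and 0.268 FPKM in *nerd-1*, 2.12 and 2.17 FPKM in *nerd-1*+T and 0.718 and 0.455 FPKM in WT (-1.26 ± 0.09). It passed the filter through *nerd-1*+T only, where it is high by that choice. *LAC4* was at 6.397 and 5.92 FPKM in *nerd-1*, 11.9 and 14.6 FPKM in *nerd-1*+T and 7.27 and 9.44 FPKM in WT (-0.99 ± 0.11). *ARPN* (-0.91), *LAC3* (-0.80), *COX5B-1* (-0.74), *LAC7* (-0.63) and *LAC17* (-0.40) had smaller differences, and for each both *nerd-1* libraries lay below both of *nerd-1*+T.

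For each called target but *CSD2*, the RefSeq transcript stretch that best matches its microRNA without gaps is printed 5′ to 3′ as DNA. The bases that face the seed are in capitals, so that the pairing can be read against the mature sequences above. A match of this kind is a description and no proof of cleavage.
CSD1 with miR398c-3p (5′ UTR, chr1:2827177-2827685, plus strand, across an intron): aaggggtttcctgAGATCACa
CCS with miR398c-3p (coding, chr1:4267521-4267541, minus strand): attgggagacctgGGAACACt
COX5B-1 with miR398c-3p (5′ UTR, chr3:5299204-5299224, plus strand): aaggtgtgacctgAGAATCAc
ARPN with miR408-3p (coding, chr2:827696-827716, minus strand): ccaagggaagaggCAGTGCAt
LAC3 with miR408-3p (coding, chr2:12889603-12889623, minus strand): accagtgaagaggCTGTGCAg
LAC2 with miR397a (coding, chr2:12526364-12526384, minus strand): aatcaatgctgcaCTCAATGa
LAC4 with miR397a (coding, chr2:15936120-15936140, plus strand): agtcaacgctgcaCTTAATGa
LAC17 with miR397a (coding, chr5:24169068-24169088, plus strand): aatcaatgctgcaCTTAATGa
LAC7 with miR857 (coding, chr3:2829996-2830397, minus strand, across an intron): acacaccttcaacGTACAAAa

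*LAC2* and *LAC7* paired at 19 of 21 bases by Watson-Crick rules, as did *ARPN*, *LAC4* and *LAC17* at 19, 18 and 18, and *CSD1* and *LAC3* at 17. A match as good was found in 1 of 18776 genes scanned for *LAC2* and for *LAC7*, in 2 for *ARPN*, in 3 for *LAC4* and for *LAC17*, in 7 for *CSD1* and in 17 for *LAC3*. *CCS* and *COX5B-1* paired at 15 bases, as well as 1.69% of genes did. The best ungapped match of *CSD2* was no better than that of 13.2% of genes and is not printed. *LAC13*, not called, and *LAC12*, under the filter, paired with miR408-3p at 17 bases, with a match as good in 8 genes. Their sites are not printed and matched better than that of *LAC3*, so that a close match did not always go with a call.

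**Figure D3:**
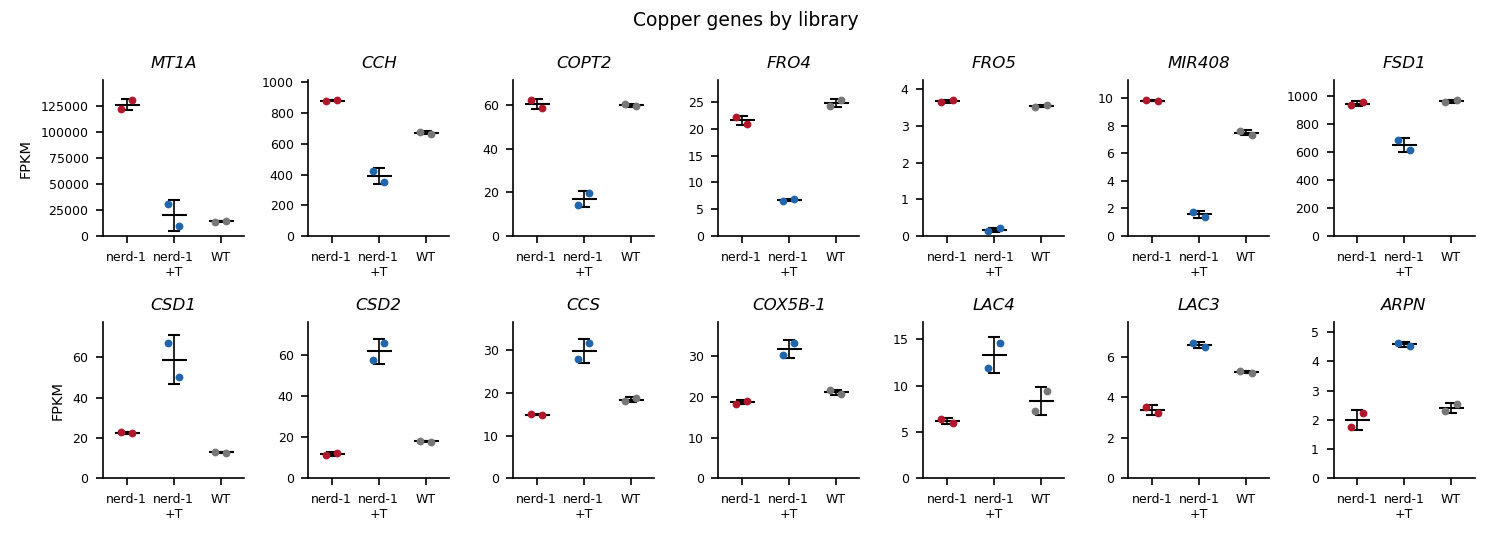
FPKM by library (points; bars are the mean and SD of 2 libraries) of *MT1A*, 6 copper-response genes and 7 genes of copper proteins in *nerd-1*, *nerd-1*+T and WT, each panel on its own scale from 0. In the upper row *nerd-1*+T lies below *nerd-1* and in the lower row above it, and except for *MT1A* and *LAC3* the WT points lie nearer those of *nerd-1*.

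Several iron deficiency genes were higher in *nerd-1*, and the root uptake genes *FIT*, *IRT1* and *FRO2* were not called. Of 18 genes tested, 8 were higher (44.4%) and 2 lower (11.1%), with a median of 0.44, and all 10 held under both scalings, but 2 each without *nerd-1* replicate 1 and without replicate 2. *IMA2*, which encodes an IRON MAN peptide that signals iron shortage, was at 7.14 and 7.64 FPKM in *nerd-1*, 2.27 and 1.78 FPKM in *nerd-1*+T and 9.08 and 10.4 FPKM in WT (1.48 ± 0.11). *BHLH101*, a transcription factor of the iron response, was at 11.1 and 11.2 FPKM in *nerd-1*, 2.82 and 3.05 FPKM in *nerd-1*+T and 5.36 and 5.80 FPKM in WT (1.63 ± 0.07). *IMA3* was at 33.7 and 32.0 FPKM in *nerd-1*, 11.1 and 15.72 FPKM in *nerd-1*+T and 74.0 and 71.5 FPKM in WT (1.25 ± 0.17). In 6 of the 8 genes that were higher, WT was closer to *nerd-1* than to *nerd-1*+T. WT lay above both lines for 4 of the 8. *FER1* and *FER4*, ferritins that store iron, were lower in *nerd-1* (-0.73 and -0.43), with WT closer to *nerd-1*+T for both. *FIT*, *IRT1* and *FRO2*, the regulator, transporter and reductase of root uptake, differed by -0.48, -0.06 and -0.03 and were not called.

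Sulphur deficiency genes were called in 8 of 8 cases, 7 higher in *nerd-1* (87.5%) and 1 lower. *LSU1*, induced by low sulphur, was at 4.82 and 4.77 FPKM in *nerd-1*, 0.358 and 0.629 FPKM in *nerd-1*+T and 4.95 and 3.14 FPKM in WT (1.96 ± 0.12, adjusted *p* = 0.00406). It passed the filter through *nerd-1* only, where it is high by that choice. Its relative *LSU2* was at 19.7 and 17.9 FPKM in *nerd-1*, 7.01 and 7.93 FPKM in *nerd-1*+T and 28.6 and 27.5 FPKM in WT (1.22 ± 0.09). *APR1*, an adenosine phosphosulphate reductase, was at 55.4 and 55.0 FPKM in *nerd-1*, 24.4 and 22.3 FPKM in *nerd-1*+T and 55.4 and 54.1 FPKM in WT (1.21 ± 0.07). These 3 genes held without either *nerd-1* library, and WT was closer to *nerd-1* for 5 of the 7. WT lay above both lines for 2 of the 7 and below both for 2. *LSU3*, the neighbour of *LSU1*, rose by 1.57 (chosen after its values were seen). The 7 included differences as small as 0.23, of *APR2* (named after its value was seen), and 4 of the 7 held under both scalings. *SULTR4;2*, which empties sulphate from the vacuole, was the 1 lower, at -0.34.

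Of 15 phosphate starvation genes, 6 were higher in *nerd-1* (40%) and 2 lower (13.3%). WT was closer to *nerd-1* for all 6 that were higher, but lay above both lines for 4 of them. *GDPD1*, which breaks down phospholipid head groups, was at 24.6 and 26.5 FPKM in *nerd-1*, 8.52 and 7.37 FPKM in *nerd-1*+T and 24.0 and 22.3 FPKM in WT (1.57 ± 0.09). *PAP17*, a purple acid phosphatase, was at 12.01 and 11.9 FPKM in *nerd-1*, 3.75 and 3.86 FPKM in *nerd-1*+T and 21.5 and 20.8 FPKM in WT (1.43 ± 0.06). The phosphate transporter *PHT1;4* and *SPX1*, which restrains the response, were both 1.12 higher. Against these, *IPS1*, a non-coding RNA induced by low phosphate that sequesters a microRNA, was lower in *nerd-1* (-0.74 ± 0.09), as was *PHO1;H1* (-0.32). Without *nerd-1* replicate 1, 2 of the 8 calls held, and 2 without replicate 2; scaled to the FPKM total, 5 were higher and 4 lower. Of 7 nitrate assimilation genes, *NIA1*, a nitrate reductase, and *ASN1*, an asparagine synthetase, were lower in *nerd-1* (-0.58 and -0.56), and 0 were higher; neither call held without a *nerd-1* library.

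Many genes of the early response to stress and touch were far higher in *nerd-1*. These genes, mostly of zinc finger, WRKY and ERF transcription factors, are known to be transcribed within minutes of wounding, touch or microbial elicitors. Of 32 tested, 23 were higher in *nerd-1* (71.9%) and 4 lower (12.5%), with a median difference of 1.099. Without *nerd-1* replicate 1, 17 of the 27 calls held, and 15 without replicate 2. After both other scalings 22 of the 23 and all 4 held. For 17 of the 23, WT was closer to *nerd-1*+T.

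*ERF105* was at 123 and 129 FPKM in *nerd-1*, 22.02 and 29.7 FPKM in *nerd-1*+T and 76.6 and 84.1 FPKM in WT (2.26 ± 0.15, adjusted *p* = 0.00503). *WRKY33*, a regulator of camalexin synthesis and of defence against fungi, was at 121 and 126 FPKM in *nerd-1*, 23.61 and 27.4 FPKM in *nerd-1*+T and 40.8 and 45.6 FPKM in WT (2.24 ± 0.09). *ZAT6*, a zinc finger repressor, was at 33.5 and 36.1 FPKM in *nerd-1*, 6.97 and 6.498 FPKM in *nerd-1*+T and 19.0 and 19.8 FPKM in WT (2.21 ± 0.07). In all 3, *nerd-1* was the highest genotype and *nerd-1*+T the lowest. *WRKY18* went the other way, with 23.4 and 24.2 FPKM in *nerd-1*, 74.0 and 97.3 FPKM in *nerd-1*+T and 8.43 and 7.85 FPKM in WT (-1.79 ± 0.14), although it is known to act together with *WRKY40*, which was 1.65 higher. *WRKY29* (-0.63), *TCH4* (-0.55) and *TCH3* (-0.31) were also lower. WT stood apart from both lines for the touch genes: *TCH4*, a xyloglucan endotransglucosylase, was at 743 and 772 FPKM in *nerd-1*, 1091 and 1120 FPKM in *nerd-1*+T and 51.5 and 53.6 FPKM in WT.

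**Figure D4:**
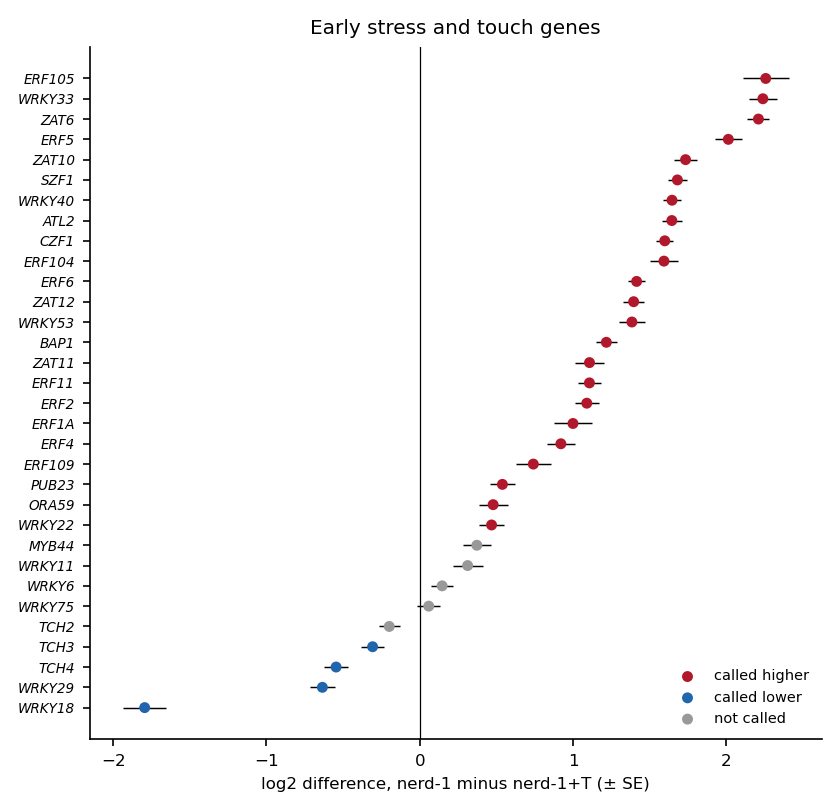
Difference of *nerd-1* minus *nerd-1*+T (log2 FPKM + 1) with its SE for the 32 early stress and touch genes tested, in order of size. The 23 called higher (red) reach 2.26 in *ERF105*, and *WRKY18* is the lowest of the 4 called lower (blue).

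Of 19 tested genes whose annotation names ethylene-responsive or DREB factors, 12 were higher (63.2%) and 0 lower (10 and 0 after total scaling). The 12 include the ethylene receptor *ERS2*, which is no such factor, 7 genes already on the early stress list, and 2 that passed the filter through *nerd-1* only; 5 held without *nerd-1* replicate 1 and 4 without replicate 2. *ERF5* was at 30.9 and 33.4 FPKM in *nerd-1*, 6.75 and 7.69 FPKM in *nerd-1*+T and 34.4 and 36.8 FPKM in WT (2.01 ± 0.09), and *ERF104* and *ERF6* were 1.59 and 1.42 higher. Several genes were chosen after their values were seen. *ACS6*, which makes the precursor of ethylene, was at 66.8 and 67.6 FPKM in *nerd-1*, 9.20 and 9.07 FPKM in *nerd-1*+T and 34.9 and 34.6 FPKM in WT (2.75 ± 0.05, adjusted *p* = 0.000659). *PBP1*, a calcium-binding protein that interacts with the kinase PINOID, was at 63.3 and 65.2 FPKM in *nerd-1*, 14.1 and 9.98 FPKM in *nerd-1*+T and 9.51 and 11.1 FPKM in WT (2.34 ± 0.16). AT4G27280, another calcium-binding EF-hand protein, rose by 2.24 and the factor *ORA47* by 2.17. Of these, WT was near *nerd-1*+T for *PBP1* and AT4G27280 and near *nerd-1* for *ORA47*.

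Over the whole WRKY family of 52 tested genes, 10 were higher and 4 lower, close to the shares of all genes, and the balance turned to 8 higher and 11 lower after scaling to the FPKM total, and 5 of the 14 calls held without each *nerd-1* library. *WRKY70*, a switch between salicylic acid and jasmonate defence, was at 85.0 and 90.11 FPKM in *nerd-1*, 23.3 and 22.4 FPKM in *nerd-1*+T and 26.0 and 26.5 FPKM in WT (1.89 ± 0.06). Of 76 MYB genes, 14 were higher (18.4%) and 4 lower (5.26%), or 9 and 8 after total scaling. Over all genes 16.5% were higher and 9.48% lower. Of the MYB calls, 2 held without *nerd-1* replicate 1 and 1 without replicate 2. *MYB77*, a factor of auxin-dependent root growth, was at 82.7 and 79.9 FPKM in *nerd-1*, 17.0 and 15.4 FPKM in *nerd-1*+T and 14.6 and 14.8 FPKM in WT (2.26 ± 0.07). For both genes *nerd-1* was the high one and the complemented line lay near WT.

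Hormone pathways downstream were divided. Of 18 salicylic acid genes, 4 were higher in *nerd-1* (22.2%) and 3 lower (16.7%), or 4 and 5 after total scaling. The regulators *WRKY70* and *CBP60G* were higher (1.89 and 1.43), with *WRKY46* (0.95), whereas the secreted end products *PR1* and *PR2* were lower. *PR1* was at 3.08 and 3.20 FPKM in *nerd-1*, 7.77 and 6.11 FPKM in *nerd-1*+T and 3.80 and 4.88 FPKM in WT (-0.93 ± 0.12), a low level in all genotypes. *ICS1*, the synthase, and *NPR1*, the receptor, were not called (-0.23 and 0.06). *WRKY70* and *CBP60G* held without either *nerd-1* library.

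Among 24 jasmonate genes, 3 were higher (12.5%) and 6 lower (25%), and 1 and 10 after total scaling. *MYC2*, the main transcription factor, was 0.57 ± 0.06 higher. *CYP94C1*, which inactivates the hormone by oxidation, was at 2.36 and 2.21 FPKM in *nerd-1*, 6.51 and 6.05 FPKM in *nerd-1*+T and 0.803 and 0.811 FPKM in WT (-1.15 ± 0.08), and was the 1 call that held without either *nerd-1* library. The storage protein *VSP2* and the repressor *JAZ8* were 0.83 and 0.77 lower. The synthesis genes *LOX2*, *AOS* and *OPR3* were not called.

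Abscisic acid genes were higher in 7 of 11 cases (63.6%) and lower in 0, with a median of 0.40. *NCED3*, which makes the committed step of synthesis, was at 5.21 and 5.85 FPKM in *nerd-1*, 1.995 and 1.94 FPKM in *nerd-1*+T and 5.37 and 5.70 FPKM in WT (1.14 ± 0.08). *CYP707A3*, a hydroxylase that removes the hormone and was chosen after its values were seen, was at 38.9 and 40.1 FPKM in *nerd-1*, 7.90 and 10.2 FPKM in *nerd-1*+T and 13.2 and 13.9 FPKM in WT (2.02 ± 0.13). Synthesis and removal were thus both higher in *nerd-1*. The phosphatase *ABI1* and the proline synthesis gene *P5CS1* were 0.86 and 0.67 higher, and WT was closer to *nerd-1* for 6 of the 7. WT lay above both lines for 5 of the 7 and below both for 1. *NCED3* alone held without either *nerd-1* library, and 5 of the 7 held under both scalings.

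Cold genes gave 7 higher (46.7%) and 3 lower (20%) of 15, or 5 and 5 after total scaling, and 4 of the 7 and all 3 held under both scalings. *CBF1*, an early cold regulator, was at 5.37 and 4.297 FPKM in *nerd-1*, 0.951 and 0.604 FPKM in *nerd-1*+T and 7.32 and 6.18 FPKM in WT (1.72 ± 0.15). It passed the filter through *nerd-1* only, where it is high by that choice. *CBF2* was at 19.4 and 19.9 FPKM in *nerd-1*, 7.04 and 6.32 FPKM in *nerd-1*+T and 5.01 and 5.401 FPKM in WT (1.43 ± 0.07), so that WT lay with *nerd-1* for the first and with *nerd-1*+T for the second. Their targets were divided. *COR15B*, a chloroplast protectant, was 0.96 ± 0.07 higher, whereas *COR47*, a dehydrin, was at 443 and 430 FPKM in *nerd-1*, 934 and 1307 FPKM in *nerd-1*+T and 874 and 871 FPKM in WT (-1.34 ± 0.18). The dehydrins *ERD10* and *LTI30* were also lower (-0.997 and -0.27), again with WT closer to *nerd-1*+T. *CBF1* and *CBF2* alone held without either *nerd-1* library. Of 17 heat shock genes, 5 were higher (29.4%) and 1 lower (5.88%), led by the repressor *HSFB2A*, at 18.1 and 18.17 FPKM in *nerd-1*, 5.45 and 4.94 FPKM in *nerd-1*+T and 7.98 and 7.74 FPKM in WT (1.63 ± 0.07), while the chaperones *HSP101* (0.11) and *HSP90.1* (0.42) were not called. *HSFB2A* alone held without either *nerd-1* library.

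Aliphatic glucosinolates are sulphur-rich defence compounds made from methionine under the control of MYB28 and MYB29. Of 21 genes of this pathway, 15 were higher in *nerd-1* than in *nerd-1*+T (71.4%) and 0 lower, with a median of 0.54. In all 15 WT was closer to *nerd-1*, and its level was the highest of the 3 genotypes. *MYB29* was at 15.0 and 14.8 FPKM in *nerd-1*, 6.58 and 9.05 FPKM in *nerd-1*+T and 36.5 and 36.7 FPKM in WT (0.86 ± 0.15). *MYB28* was at 63.3 and 64.2 FPKM in *nerd-1*, 40.5 and 48.2 FPKM in *nerd-1*+T and 162 and 163 FPKM in WT (0.52 ± 0.10).

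Both regulators thus ran WT, *nerd-1*, *nerd-1*+T from high to low, and so did the called enzymes. *GSTF11*, a glutathione transferase of the core pathway, was at 14.8 and 14.9 FPKM in *nerd-1*, 5.98 and 4.80 FPKM in *nerd-1*+T and 22.4 and 19.8 FPKM in WT (1.32 ± 0.11). *FMO-GSOX3*, which oxidises the side chain, was 1.02 ± 0.07 higher and the plastid carrier *BAT5* 0.87 ± 0.06. The first chain elongation enzymes *MAM1* and *MAM3* were not called (0.09 and 0.06). Of the 15 calls, 12 held under both scalings and 0 without *nerd-1* replicate 1 or replicate 2. *ESM1*, which steers glucosinolate breakdown and was chosen after its values were seen, was at 188 and 193 FPKM in *nerd-1*, 84.1 FPKM in both *nerd-1*+T libraries and 554 and 556 FPKM in WT (1.17 ± 0.06).

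**Figure D5:**
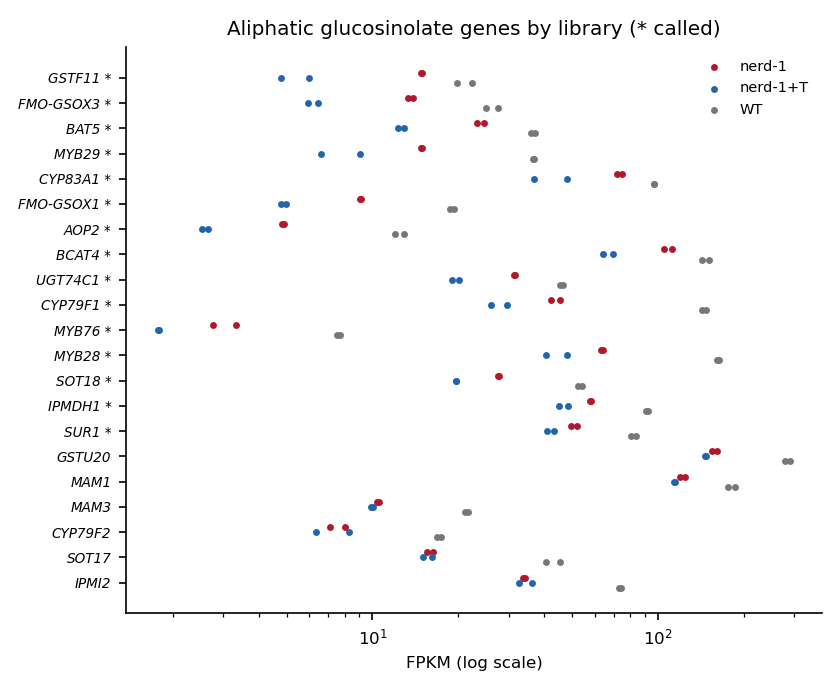
FPKM (log scale) of the 21 aliphatic glucosinolate genes tested, 1 point per library, with *nerd-1* (red) above *nerd-1*+T (blue) and WT (grey) in each row and an asterisk for the 15 called. In every called row the *nerd-1* points lie between those of *nerd-1*+T on the left and those of WT on the right.

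Indole glucosinolate and camalexin genes, which start from tryptophan, were not shifted as a group: 3 of 20 were higher (15%) and 4 lower (20%), with a median of 0.02. The regulator *MYB51* was at 40.9 and 43.3 FPKM in *nerd-1*, 19.8 and 20.7 FPKM in *nerd-1*+T and 16.1 and 17.1 FPKM in WT (1.02 ± 0.06). The camalexin enzymes *CYP71A13* and *PAD3* were 0.68 and 0.53 lower in *nerd-1*, and *PEN2*, a myrosinase of defence, 0.66 lower. *WRKY33* and the camalexin enzymes that it controls therefore had differences of opposite sign. Without *nerd-1* replicate 1, *MYB51* alone held, and without replicate 2, 0 held.

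Flavonoid genes were higher in 11 of 18 cases (61.1%) and lower in 1. *CHS*, the first enzyme, was at 18.7 and 18.6 FPKM in *nerd-1*, 10.4 and 7.02 FPKM in *nerd-1*+T and 14.2 and 15.2 FPKM in WT (1.04 ± 0.18), and *CHI*, the second, was 0.86 ± 0.06 higher. *GSTF12*, which carries anthocyanins, was 0.79 higher, and *UGT75C1*, which glycosylates them, 0.36 lower. The anthocyanin regulators *PAP1*, *PAP2* and *TT8* stayed under the filter. Scaling kept 9 of the 11, and 0 calls held without a *nerd-1* library. Of 21 wax genes, 7 were higher (33.3%) and 1 lower, or 3 and 5 after total scaling; the 1 lower as deposited was *KCS1*, a fatty acid elongase, at 46.7 and 46.4 FPKM in *nerd-1*, 82.5 and 76.5 FPKM in *nerd-1*+T and 40.2 and 42.6 FPKM in WT (-0.76 ± 0.06), and 0 wax calls held without a *nerd-1* library.

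Wall-loosening families leaned in opposite directions, with calls both ways in each, against 16.5% higher and 9.48% lower over all genes. Expansins, which loosen the wall without cutting it, were higher in 14 of 21 cases (66.7%) and lower in 3 (14.3%), with a median of 0.59. *EXPA8* was at 60.8 FPKM in both *nerd-1* libraries, 13.7 and 13.9 FPKM in *nerd-1*+T and 69.7 and 68.6 FPKM in WT (2.06 ± 0.05, adjusted *p* = 0.00156), and *EXPA1* was at 93.3 and 96.6 FPKM in *nerd-1*, 40.6 and 42.2 FPKM in *nerd-1*+T and 152 and 154 FPKM in WT (1.18 ± 0.06). *EXLA1*, an expansin-like gene, went against them, with 96.2 and 97.4 FPKM in *nerd-1*, 267 and 311 FPKM in *nerd-1*+T and 12.7 and 15.0 FPKM in WT (-1.57 ± 0.09). WT was closer to *nerd-1* for 11 of the 14 and 2 of the 3. It lay above both lines for 6 of the 14 and below both for 2 of the 3. Xyloglucan endotransglucosylases cut and rejoin the hemicellulose that ties cellulose together. They were lower in 10 of 25 cases (40%) and higher in 5 (20%). WT lay below both lines for all 10 that were lower, and was thus closer to *nerd-1*. *XTH16* was at 65.8 and 67.7 FPKM in *nerd-1*, 221 and 255 FPKM in *nerd-1*+T and 42.3 and 40.9 FPKM in WT (-1.81 ± 0.09), *XTH15* was 1.75 lower and *XTH24* 1.39 lower. Without *nerd-1* replicate 1 and without replicate 2, 3 and 3 of the expansin calls held, and 3 and 4 of the others.

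Extensins and proline-rich wall proteins were higher in 19 of 41 cases (46.3%) and lower in 1, or 10 and 5 after total scaling, led by *EXT3*, at 377 and 445 FPKM in *nerd-1*, 207 and 188 FPKM in *nerd-1*+T and 193 and 221 FPKM in WT (1.05 ± 0.11). Pectin methylesterases and their inhibitors gave 5 higher (10.4%) and 12 lower (25%) of 48, and arabinogalactan proteins 4 higher (9.76%) and 8 lower (19.5%) of 41. In the last, *FLA13* was at 79.0 and 79.8 FPKM in *nerd-1*, 169 and 184 FPKM in *nerd-1*+T and 38.8 and 40.6 FPKM in WT (-1.14 ± 0.07). Of these 3 families, 1 pectin gene held its call without *nerd-1* replicate 2 and 0 genes without replicate 1.

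Photosystem and light-harvesting genes, among the most abundant RNAs of the seedling, had a median difference of 0.30, but 7 of 42 were called higher (16.7%, close to the share of all genes) and 1 lower. *LHCB6* was at 1524 and 1383 FPKM in *nerd-1*, 916 and 719 FPKM in *nerd-1*+T and 499 and 469 FPKM in WT (0.84 ± 0.15), *PSBQ1* was 0.69 higher and *PSBW* 0.61. WT lay below both lines for all 7, and was thus closer to *nerd-1*+T. Of the 7, 2 held under both scalings and 0 without a *nerd-1* library. Of 17 genes of Rubisco and the Calvin cycle, 4 were higher and 0 lower, with 1 of the 4 kept under both scalings, and of 9 genes of isoprenoid synthesis in the plastid *HDS*, also a GENE1 of the pairs below, alone was called, 0.32 lower. *LHCB1.3*, 1 of a set of near-identical genes between which reads can be shared, stayed under the filter because 1 of the 4 libraries, *nerd-1*+T replicate 1, had a value above 0 there, so that no value of this set is used.

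Senescence and sugar starvation genes were often lower in *nerd-1*, 6 of 12 (50%), with 2 higher (16.7%). *BCAT2*, which breaks down branched-chain amino acids, was at 10.9 and 11.6 FPKM in *nerd-1*, 21.1 and 22.6 FPKM in *nerd-1*+T and 5.74 and 6.59 FPKM in WT (-0.90 ± 0.07). *SEN1*, induced by darkness, was at 452 and 461 FPKM in *nerd-1*, 677 and 953 FPKM in *nerd-1*+T and 242 and 240 FPKM in WT (-0.81 ± 0.18), and *DIN10*, a raffinose synthase-like gene, was 0.68 lower. For all 6, WT was closer to *nerd-1*, and lower than either line for each gene with values given here. Both other scalings move differences downward, so that they could hardly remove these 6 lower calls. Further genes of amino acid breakdown were chosen after their values were seen. *ERD5*, a proline dehydrogenase, was at 158 and 156 FPKM in *nerd-1*, 460 and 529 FPKM in *nerd-1*+T and 63.6 and 68.7 FPKM in WT (-1.65 ± 0.09), and *THA1*, a threonine aldolase, was 1.66 lower. All 6 calls held under both scalings and 0 without a *nerd-1* library.

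The pathways in which NERD itself has been placed had shares of calls near or below those of all genes. Of 35 genes of small RNA and DNA methylation pathways, 6 were higher (17.1%) and 2 lower (5.71%), and 3 and 4 after total scaling. *RDM1* and *DMS3*, subunits of a complex that helps RNA polymerase V, were 0.53 and 0.46 higher and *AGO3* 0.50 higher, and *IDN2*, an RNA-binding protein of the same pathway, was at 14.2 and 13.5 FPKM in *nerd-1*, 19.8 and 25.4 FPKM in *nerd-1*+T and 30.05 and 27.5 FPKM in WT (-0.66 ± 0.13). *RDR2*, *NRPD1*, *AGO2* and *DRM2* were not called, with differences from 0.03 to 0.14. Of 19 m6A genes 2 were higher (10.5%) and 1 lower (5.26%): the readers *ECT8* and *ECT5* were 0.35 and 0.28 higher and *ECT2* 0.29 lower, and the first 2 calls were lost under another scaling, which gave 0 higher and 4 lower. *MTA*, the methyltransferase, and *FIP37*, its partner, were not called (0.16 and -0.50). Among 14 genes of 3′ end cleavage 2 were higher (14.3%) and 0 lower, or 1 and 1 after total scaling. *FPA*, which promotes early polyadenylation, was at 22.7 and 22.6 FPKM in *nerd-1*, 14.3 and 14.0 FPKM in *nerd-1*+T and 16.4 and 16.8 FPKM in WT (0.64 ± 0.06), and *CLPS3* was 0.32 higher. No call of these 3 lists held without a *nerd-1* library.

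FPA is known to repress the flowering inhibitor *FLC*, and *FLC* was also higher in *nerd-1*. It was at 19.9 and 20.5 FPKM in *nerd-1*, 6.68 and 6.86 FPKM in *nerd-1*+T and 11.8 and 11.9 FPKM in WT (1.45 ± 0.06, adjusted *p* = 0.00258), the 1 call of the 4 on the flowering list that held without either *nerd-1* library. *SOC1*, a flowering promoter that FLC represses, was at 38.8 and 38.5 FPKM in *nerd-1*, 59.0 and 62.8 FPKM in *nerd-1*+T and 49.95 and 50.1 FPKM in WT (-0.64 ± 0.06). The 3 genotypes thus ran in opposite order for the 2 genes. *FLM*, a relative of *FLC*, was 0.40 higher and *CO*, the photoperiod activator, 0.58 lower, while *SVP* was not called and *FT*, *TSF* and *LFY* stayed under the filter.

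The study listed adjacent gene pairs in which transcripts of the upstream GENE1 continue into the downstream GENE2, a list of 37 pairs that it chose partly on these samples, so that the counts are not independent evidence of a direction. All 37 GENE1s were tested, of which 8 were higher (21.6%) and 4 lower (10.8%), or 4 and 10 after total scaling, and 1 call held without each *nerd-1* library. Of the GENE2s 22 were tested, 10 of them through 1 genotype only, with 17 higher (77.3%) and 1 lower and a median of 1.12. Members that passed through *nerd-1* alone are high there by that choice: with 1 FPKM required in all 4 libraries 7 GENE2s were higher and 1 lower, and 9 of the 18 calls held without each *nerd-1* library. AT5G07640 had the largest difference, with 5.33 and 5.58 FPKM in *nerd-1*, 0.353 and 0.238 FPKM in *nerd-1*+T and 0.522 and 0.703 FPKM in WT (2.32 ± 0.09). AT1G05894 was at 4.33 and 4.67 FPKM in *nerd-1*, 0.333 and 0.365 FPKM in *nerd-1*+T and 0.568 and 0.710 FPKM in WT (2.03 ± 0.08). For 16 of the 17, WT was closer to *nerd-1*+T, and 16 held under both scalings. *SD1-13*, a receptor kinase, was the 1 GENE2 lower in *nerd-1*, at -0.31. AT2G11270, the GENE1 with the largest difference, was at 5.01 and 8.18 FPKM in *nerd-1*, listed at 0 in both *nerd-1*+T libraries and at 1.66 and 0.589 FPKM in WT.

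Among large families, F-box proteins, the substrate receptors of ubiquitin ligases, were higher in 59 of 155 cases (38.1%) and lower in 5 (3.23%), or 32 and 12 after total scaling, with AT5G60610 (1.92) and AT5G56810 (1.46) at the top. AT5G60610 is also a GENE2 and passed the filter through *nerd-1* only, where it is high by that choice. Of the 155 F-box genes, 9 passed through 1 genotype only. With 1 FPKM required in all 4 libraries, 56 were higher and 4 lower. Pentatricopeptide repeat proteins, which edit and process organelle RNA, went the other way, with 8 higher (3.31%) and 31 lower (12.8%) of 242 tested (1 and 72 after total scaling, 4 and 54 after centring), and WT closer to *nerd-1*+T for 26 of the 31. Their differences were small, AT1G66345 (-1.02) and AT5G46440 (-0.97) having the largest. WT lay above both lines for 16 of the 31. Cysteine-rich receptor-like kinases were lower in 10 of 22 cases (45.5%) and higher in 2 (13 and 0 after total scaling). WT was closer to *nerd-1* for all 10 and below both lines for 4 of them. *CRK41* was at 4.28 and 4.11 FPKM in *nerd-1*, 10.5 and 12.2 FPKM in *nerd-1*+T and 3.27 and 2.97 FPKM in WT (-1.25 ± 0.09). NBS-LRR resistance genes gave 20 higher (20.8%) and 14 lower (14.6%) of 96, or 9 and 28 after total scaling. *RPM1*, a sensor of bacterial effectors, was 1.097 lower. Aquaporins were higher in 6 of 26 cases (23.1%) and lower in 0, or 2 and 1 after total scaling. Proteins annotated as ribosomal were higher in 40 (13.8%) and lower in 8 (2.76%) of 290, a balance that total scaling turned to 16 and 36. Over all genes 16.5% were higher and 9.48% lower, so that both ribosomal shares were below those of all genes. Without *nerd-1* replicate 1 and without replicate 2, 4 and 5 F-box calls held, 1 and 0 of the kinases, 1 and 2 of the resistance genes, 1 and 1 of the ribosomal proteins, and 0 and 0 of the pentatricopeptide repeat proteins and of the aquaporins.

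Precursors of other microRNAs were few in polyadenylated RNA. Of 178 precursor genes, 136 were listed at 0 in all 6 libraries and 23 were tested, the copper ones included. Of these 23, 6 were higher in *nerd-1* and 4 lower, beside 16.5% higher and 9.48% lower over all genes. *MIR164b* (chr5:287584-287736) was at 10.7 and 10.9 FPKM in *nerd-1* and listed at 0 in both libraries of *nerd-1*+T and of WT. *MIR472*, which lies within the resistance gene AT1G12290, was at 19.1 and 21.4 FPKM in *nerd-1*, 2.86 and 0 FPKM in *nerd-1*+T and 0 in both WT libraries, and its host gene was not called (-0.25). The other genes of this paragraph were chosen after their values were seen, apart from *MIR863*, at 0.392 and 0.595 FPKM in *nerd-1*, 4.35 and 6.75 FPKM in *nerd-1*+T and 12.1 and 12.8 FPKM in WT, which overlaps the RNA gene AT4G13495. *MIR169m* was listed at 0 in both *nerd-1* and both WT libraries and at 4.35 and 4.24 FPKM in *nerd-1*+T. *MIR164b* passed the filter through *nerd-1* only, and *MIR863* and *MIR169m* through *nerd-1*+T only. Each is high there by that choice. *MIR156c* and *MIR162a* were 0.64 and 0.41 higher, *MIR167d* and *MIR822* 1.33 and 1.28 lower, and the calls of *MIR162a* and *MIR822* were lost when no filter was applied.

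Targets of these microRNAs, listed after the precursors' values were seen, had few calls. Of the 4 miR164 targets tested, *NAC1* was 0.40 lower and *ORE1*, a senescence factor, 0.42 higher, of 9 miR156 targets (SPL genes) 2 were higher and 2 lower, of 7 miR169 targets (NF-Y subunits) *NF-YA10* alone was called (0.62), although for all 7 both *nerd-1* libraries lay above both of *nerd-1*+T (45.4% of all genes did), with a median of 0.31, and of the 2 miR167 targets, *ARF6* and *ARF8*, neither was. None of these calls held without a *nerd-1* library. The miR164b sequence is shown with the best ungapped matches of both called targets, in the notation used above, because the pairs are nearly as complete as those of the laccases while the directions differ.
miR164b-5p (chr5:287586-287606, plus strand): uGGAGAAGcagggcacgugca
NAC1 with miR164b-5p (coding, chr1:20947142-20947162, minus strand): agcacgtaccctgCTTCTCCa
ORE1 with miR164b-5p (coding, chr5:15858797-15858817, minus strand): ctcacgtgacctgCTTCTCCg

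Circadian clock genes were higher in 8 of 21 cases (38.1%) and lower in 0, or 5 and 3 after total scaling. The core genes *CCA1*, *LHY* and *TOC1* were not called (0.11, -0.22 and 0.03), and *RVE1*, a morning factor that feeds auxin synthesis, was at 61.2 and 61.4 FPKM in *nerd-1*, 36.4 and 37.2 FPKM in *nerd-1*+T and 24.5 and 23.8 FPKM in WT (0.72 ± 0.05). Auxin response genes gave 2 higher (11.8%) and 2 lower (11.8%) of 17, or 0 and 5 after total scaling. Cell cycle genes gave 3 higher (33.3%) and 0 lower of 9, or 1 and 0, with *PCNA1*, the replication clamp, 0.49 higher. Over all genes 16.5% were higher and 9.48% lower. No call of these 3 lists held without a *nerd-1* library.

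Large changes of neighbouring genes came in pairs at most, and how many pairs placement alone would give was not tested. No run of 3 or more adjacent genes was called with at least 1 log2 unit in 1 direction, and there were 13 pairs, 11 higher in *nerd-1* and 2 lower. Among them were *FRO4* with *FRO5*, *LSU3* with *LSU1*, and *ERF2* (1.09, named for its place) with *ERF5*, each a pair of relatives. The TIR domain genes AT1G72910 and AT1G72920 (chr1:27435306-27437192 and chr1:27437899-27439209), chosen like the next pair after their values were seen, were 1.95 and 2.42 higher. AT1G72920 was at 19.5 and 21.7 FPKM in *nerd-1*, 2.93 and 3.15 FPKM in *nerd-1*+T and 17.1 and 17.9 FPKM in WT. The ankyrin repeat genes AT5G54710 and AT5G54720 were 1.46 and 1.38 lower, the second with 29.2 and 29.9 FPKM in *nerd-1*, 64.9 and 94.5 FPKM in *nerd-1*+T and 8.37 and 7.58 FPKM in WT, a call that was lost when no filter was applied. In the first pair *nerd-1*+T was low and in the second high beside both other genotypes.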

How the data were processed

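The authors purified polyadenylated RNA of 14-day-old seedlings, made stranded TruSeq libraries, and sequenced single reads. Organelle and rRNA reads were first set aside (Bowtie 2 v2.3.4), the remainder was aligned on TAIR10 (TopHat2 v2.0.7), and Cufflinks v2.2.1 was run for each library. The authors deposited its FPKM, used here without change. Cufflinks divides reads between overlapping or near-identical genes by likelihood, so that such genes can trade reads (many of the genes named overlap another, among them *MT1A*, *CYP38*, AT2G20784, AT3G22945, AT2G11270, AT5G25570, AT5G07640, *MIR408*, *MIR472*, *MIR863*, *CSD1*, *BHLH101*, *IMA3*, *GDPD1*, *PAP17*, *APR1*, *WRKY33*, *WRKY40*, *ERF105*, *ORA47*, *GSTF11*, *CHS*, *XTH15*, *EXLA1*, *THA1*, *FPA* and *RPM1*), and an exact 0 can be a failed estimate. FPKM hold no read numbers, the Methods give differing ranges of reads per library, and the depth is therefore unknown.

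Genotypes were taken from the sample labels. Counts had been assumed in the first design, with log2 values as the fallback, which was used. Features with at least 1 FPKM in 2 of the 4 *nerd-1* and *nerd-1*+T libraries (19832, of which 19266 genes) were fitted as log2(FPKM + 1) with limma 3.58.1 (mean-variance trend) in R 4.3.3, with these 4 libraries only and no block. *P*-values are two-sided and Benjamini-Hochberg adjusted over all features, with a threshold of 0.05; an exact permutation test of 2 against 2 cannot go below 0.333. WT entered no test other than the alternative fit of all 6 libraries. The fit was tested on simulated data. Tables and figures were made with Python 3.11.15, pandas 2.3.3, numpy 2.4.6 and matplotlib 3.10.9.

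The genes, lists and families were chosen with earlier results of these data known. Named were *NERD*, the 12 largest rises and 12 largest falls (called, groups not overlapping, mean of at least 5 FPKM in the higher genotype), up to 3 called members each way of a list or 3 of a family, the defining regulators or markers of a list, and all metallothioneins. Genes or lists named outside this rule are marked as chosen after their values were seen, apart from members that were not called. Names and positions come from TAIR10.1, which has 19212 of the 19266 genes. MicroRNA sites were scanned for without gaps in RefSeq transcripts. Alternatives tried were 2 other scalings, 2 other filters, a pseudocount of 0.1, all 6 libraries in one fit, genes only, a replicate block, library weights by genotype, and leaving out each library.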

Additional observations from a re-analysis of the deposited data

How the results depend on the processing

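As deposited, 3185 genes were higher and 1827 lower in *nerd-1* than in *nerd-1*+T, 293 and 170 of them by at least 1 log2 unit. Scaling to the FPKM total gave 1597 higher, 3915 lower and 292 lower by 1 unit, and centring on the median feature 2108 higher. With no filter there were 1737 and 1015. A pseudocount of 0.1 raised the larger changes to 451 and 257. With all 6 libraries in one fit 4859 were higher and 2766 lower. Leaving out 1 library at a time gave 164 to 6450 higher, 77 to 4562 lower, 164 to 435 higher by 1 unit and 77 to 263 lower by 1 unit, the low values without a *nerd-1* library and the high ones without *nerd-1*+T replicate 1. The other alternatives stayed within 1.5 times. Same-numbered libraries did not deviate together (correlation -0.05), but with 2 libraries a genotype this cannot show whether the numbers pair samples. The replicate block gave 2409, 1434, 302 and 172. Of 623 genes of the lists, families and largest changes that were fitted, 0 called ones changed sign under an alternative, and 136 that were not called, with small differences, did under at least 1. The test has 2 libraries a genotype and an unknown depth, *nerd-1*+T is 1 line, and small differences turn on the scaling.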
